A study of Mus musculus with 6 samples.

Results

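The endothelial and sinusoidal genes described here are 41 genes listed by name for the cells that line blood vessels and liver sinusoids, and 40 of them had a row with values in the deposited table of 12792 rows. *Fcn3* is not analysed here. All 40 were among the 12578 rows tested, and no value of theirs was 0 in any library. The libraries are polyadenylated RNA from mouse liver, 3 labelled wild type (WT) and 3 labelled as knockout of *Akr1d1* (KO), an enzyme that reduces steroids and bile acid precursors in the liver. Both groups carried tumours of Hepa 1-6, a hepatoma cell line of the mouse, under the same labelled model. The labels give no strain, age or sex, do not say how the knockout allele was made or in which cells it acts, and do not say whether tumour tissue was included. Whether each library of a group is a different mouse is not stated either, so the spread behind a p-value here may be technical.

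Values read as ratios: the expression of a gene in a library over its average in 7 libraries, of which 6 are used here. This is a reading from the values themselves. On it a value of 1 is the gene's mean, and levels cannot be compared between genes or read as an endothelial share of the liver. In whole tissue, fewer endothelial cells and less RNA per endothelial cell cannot be told apart. Total reads are unknown, and the relative depth estimated from rows holding a 0 spanned 1.24-fold over the libraries. The targeted gene goes against the labels: *Akr1d1* had ratios of 0.826, 0.697 and 0.881 in the libraries labelled WT and of 1.22, 1.21 and 1.35 in those labelled KO. All directions here are therefore between the libraries as labelled.

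Liver sinusoids are lined by a fenestrated endothelium without a continuous basement membrane. Its cells clear hyaluronan, modified lipoproteins, collagen fragments and other waste from blood through scavenger receptors and lectins. Larger vessels and the capillaries of other tissues have a continuous endothelium, which is richer in von Willebrand factor and CD34. Sinusoidal and central vein endothelium also secretes WNT and BMP ligands that act on neighbouring hepatocytes, and in chronic injury or within liver tumours sinusoidal cells can lose their special features, a change called capillarisation. The members are grouped here as 9 sinusoidal genes, 21 pan-endothelial genes, 5 genes of large vessels or continuous capillaries, 4 angiocrine ligands and *Mrc2*, an endocytic collagen receptor found mostly on mesenchymal cells.

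Of the 40 genes, 0 passed the threshold of a limma adjusted p under 0.05 over all rows, where 2 of 12578 rows, 0.0159%, did. At an unadjusted p under 0.05, 3 were higher in the libraries labelled KO (6.50% of all rows) and 1 was lower (5.53% of all rows). All KO values exceeded all WT values for 4 genes, *Lyve1*, *Cd34*, *Notch1* and *Ramp2*, against 8.86% of all rows. For 5 genes, *Sox18*, *Nos3*, *Vwf*, *Eng* and *Plvap*, all KO values were under all WT values, against 10.1% of all rows. Whether the values of *Plvap* rest on few reads is not known. These shares of the members are close to those over all rows. When each library was instead centred on the median of the pan-endothelial genes, a setting chosen after the data were seen, 5 genes lay above and 3 below, against 10.2% and 3.59% of all rows. Without KO replicate 1, 8 genes (20.0%) lay above, against 13.0% of all rows. The number below was 15 (37.5%) without WT replicate 2, against 14.5% of all rows. It was 8 (20.0%) without WT replicate 3, against 17.6%, and 10 of 40 without KO replicate 3, against 15.0%.

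**Figure D1:**
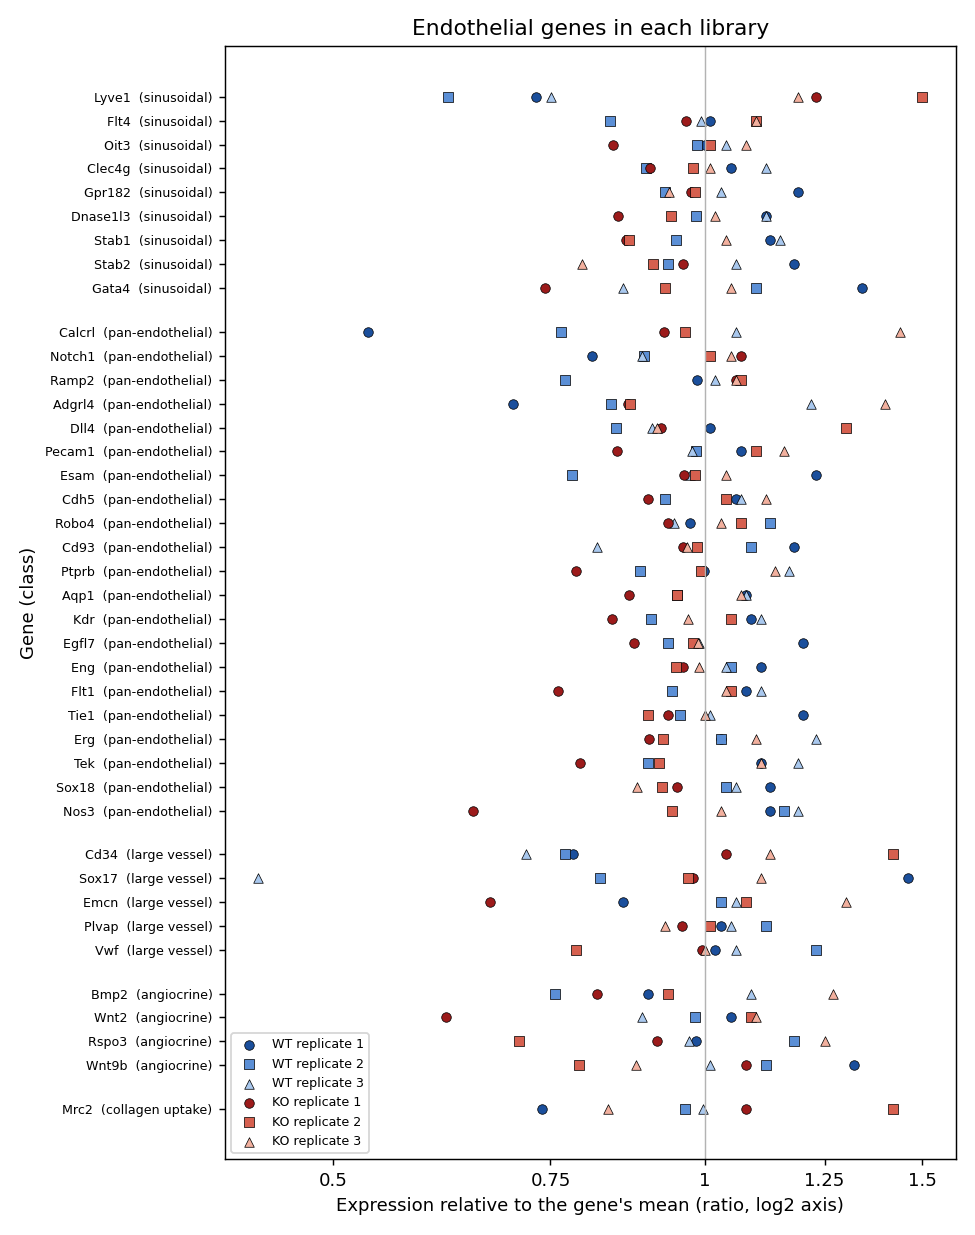
Value of each of the 40 genes in each of the 6 libraries, relative to the gene's average (log2 axis), grouped by class. The blue WT points and red KO points separate widely for *Lyve1* (0.619 to 0.751 against 1.19 to 1.50) and *Cd34* (0.717 to 0.782 against 1.04 to 1.42), and mix for most other genes.

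Among the scavenger and surface receptors of the sinusoid, *Lyve1* stood away from the others. It encodes a hyaluronan receptor of sinusoidal and lymphatic endothelium that some tissue macrophages also carry. *Lyve1* (chromosome 7, 110850607 to 110863239, minus strand, mm10) had ratios of 0.730, 0.619 and 0.751 in the libraries labelled WT and of 1.23, 1.50 and 1.19 in those labelled KO. The highest WT library lay below the lowest KO library, with a wide gap. The means were 0.700 ± 0.0711 and 1.31 ± 0.167 (SD, n = 3 each), so the KO mean was 1.87 times the WT mean. On the log2(value + 0.1) scale the change was 0.81 (SE 0.12, 95% confidence interval 0.51 to 1.11), with a limma adjusted p of 0.134, so it did not pass. The two-sided exact permutation p was 0.1, the lower limit for groups of 3. *Lyve1* had the smallest p of the 40 genes and ranked 56 among all rows tested. With each of the 6 libraries left out in turn its log2 change was 0.72 to 0.87, and its limma adjusted p was 0.197 to 0.320.

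The scavenger receptors *Stab2* and *Stab1* did not share that direction. *Stab2*, the main hyaluronan-clearing receptor of the sinusoid (chromosome 10, 86841198 to 87008025, minus strand), had ratios of 1.18, 0.933 and 1.06 in the libraries labelled WT and of 0.961, 0.908 and 0.796 in those labelled KO. The groups overlapped, with WT replicate 2 below KO replicate 1. Its log2 change was -0.23 (SE 0.12, 95% confidence interval -0.51 to 0.06, limma adjusted p = 0.514). *Stab1*, its relative, was at 1.13, 0.947 and 1.15 against 0.863, 0.868 and 1.04, a ratio of the KO mean to the WT mean of 0.857 (limma adjusted p = 0.546). The intervals of both genes reach past 0, and neither reaches the lower bound of *Lyve1*.

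Lectin and secreted sinusoidal genes lay near their means in both groups. *Clec4g*, a C-type lectin of sinusoidal endothelium, had ratios of 1.05, 0.896 and 1.12 in the libraries labelled WT and of 0.903, 0.978 and 1.01 in those labelled KO (log2 change -0.07, 95% confidence interval -0.33 to 0.18). *Oit3*, a secreted protein by which these cells are often marked, was at 1.00, 0.986 and 1.04 against 0.842, 1.01 and 1.08 (log2 change -0.05, 95% confidence interval -0.31 to 0.21). Its KO replicate 1 was the lowest of the 6 libraries. The secreted nuclease gene *Dnase1l3* was at 1.12, 0.984 and 1.12 against 0.850, 0.939 and 1.02, with overlapping groups and a ratio of means of 0.870 (limma adjusted p = 0.527). *Gpr182*, an atypical chemokine receptor of sinusoids and lymphatics, had a ratio of means of 0.918. For *Gata4*, the transcription factor that specifies sinusoidal endothelium, it was 0.824, with WT libraries spread from 0.858 to 1.34. The receptor for VEGF-C, *Flt4*, was the other sinusoidal gene with a positive log2 change (0.14, 95% confidence interval -0.11 to 0.40).

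The sinusoidal class thus had 2 positive and 7 negative log2 changes, with a median of -0.11, against a median of 0.00 over all rows tested. With libraries left out in turn the median was -0.18 to -0.06. Within a library, *Lyve1* relative to the mean of the other 8 sinusoidal genes was -0.51, -0.50 and -0.38 in the libraries labelled WT on a centred log2 scale. In those labelled KO it was 0.48, 0.64 and 0.28. The difference between the groups, 0.93, is slightly larger than the change of *Lyve1* alone, and this contrast was picked after the values were seen and carries no test.

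**Figure D2:**
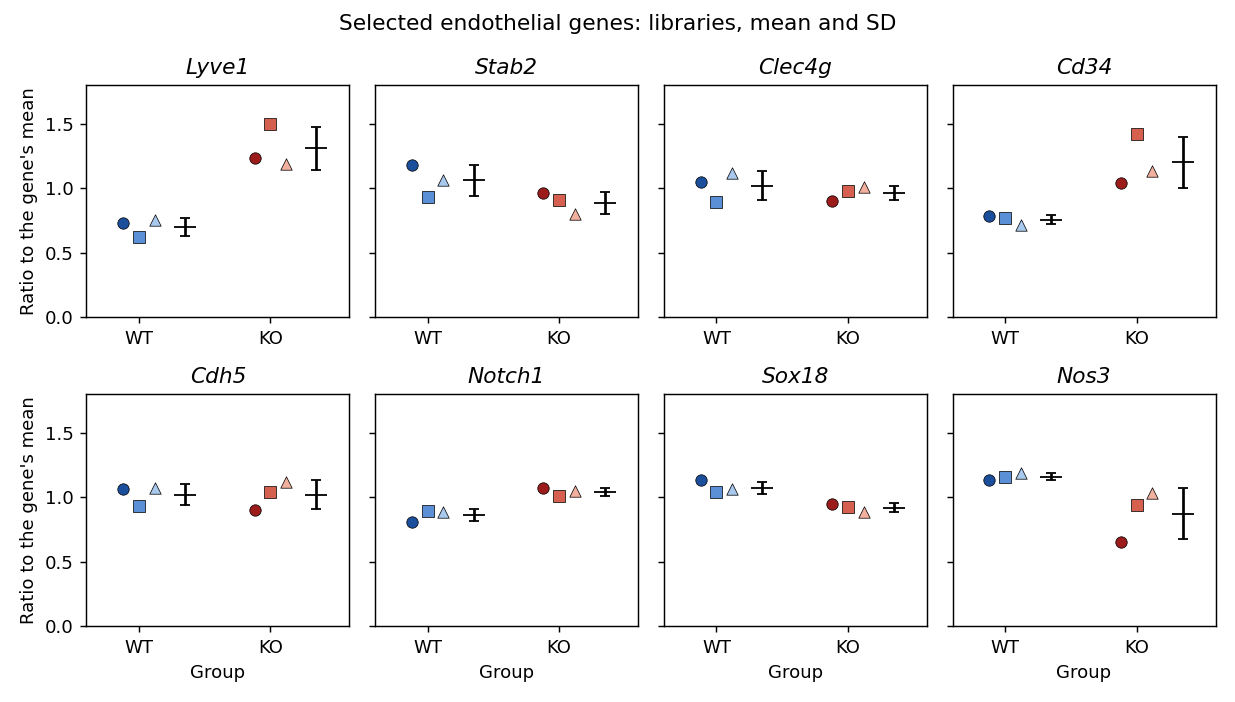
Ratios of 8 endothelial genes in each library (points), with the mean and SD of each group (bars, n = 3 each). *Lyve1* and *Cd34* have means of 1.31 and 1.20 in the libraries labelled KO against 0.700 and 0.756, while *Stab2*, *Clec4g* and *Cdh5* overlap between the groups.

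Markers of other cells that carry *Lyve1* were compared beside it. Of 10 markers of Kupffer cells, the resident macrophages of the sinusoid, 0 passed limma's test. For 7 the log2 change was positive and for 3 negative (median 0.13, lowest -0.14). All KO values exceeded all WT values for 4 of the 10, against 8.86% of all rows. *Timd4* was at 0.751, 0.707 and 0.967 against 1.14, 1.17 and 1.25, a 1.47-fold higher mean, and the macrophage gene *Adgre1* had a 1.34-fold higher mean. The list's mean centred log2 value was -0.23 to 0.04 in the libraries labelled WT and 0.03 to 0.16 in those labelled KO. Among 7 lymphatic markers, *Ccl21a* and *Mmrn1* had no row tested. *Prox1*, a lymphatic and hepatocyte transcription factor, had a 1.49-fold higher mean, while *Pdpn* and *Reln* had the list's negative changes (lowest log2 change -0.37). Its mean was -0.22 to 0.04 in the libraries labelled WT and -0.06 to 0.24 in those labelled KO, counting *Lyve1* and *Flt4*, which it shares with the sinusoidal class. The part of these cells in the *Lyve1* values was not tested.

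Among the genes of large vessels and continuous capillaries, *Cd34* was higher and *Vwf* and *Plvap* were lower in the libraries labelled KO, none past the threshold. *Cd34* encodes a sialomucin of continuous endothelium that some fibroblasts and progenitor cells also make. *Cd34* (chromosome 1, 194938819 to 194961279, plus strand) had ratios of 0.782, 0.771 and 0.717 in the libraries labelled WT and of 1.04, 1.42 and 1.13 in those labelled KO. The WT libraries lay within a narrow range and all KO libraries above it. Its means were 0.756 ± 0.0346 and 1.20 ± 0.199 (SD, n = 3 each), 1.58-fold (log2 change 0.59, SE 0.13, 95% confidence interval 0.28 to 0.90, limma adjusted p = 0.206). Relative to *Cdh5* in the same library, *Cd34* was at -0.31, -0.15 and -0.43 on a centred log2 scale in the libraries labelled WT and at 0.27, 0.51 and 0.11 in those labelled KO.

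*Vwf*, which encodes the adhesive clotting protein of large-vessel endothelium and platelets, was at 1.02, 1.23 and 1.06 against 0.995, 0.786 and 1.00. All KO values were under all WT values, by a small margin, and the ratio of means was 0.841 (log2 change -0.23, 95% confidence interval -0.54 to 0.08, limma adjusted p = 0.528). *Plvap*, a protein of the diaphragms of fenestrae, had a ratio of means of 0.905 with groups that did not overlap. Scaled by the estimated relative depths, its values match 1 read in every library within 0.1 of a read. Any gene that varies this little meets that match at any depth. The match therefore cannot show whether the values of *Plvap* rest on few reads. The sialomucin gene *Emcn* (1.03) and the arterial transcription factor gene *Sox17* (1.12) had overlapping groups, and *Sox17* was spread from 0.435 to 1.46 among the libraries labelled WT. Of 7 platelet and megakaryocyte markers 3 were tested and 0 passed. *Itga2b* had a ratio of means of 0.742 with all KO values under all WT values, while *Ppbp* (0.675) and *Pf4* (1.13) overlapped.

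RefSeq promoters (GRCm38.p6, the build named mm10) are shown for the member just described and for 3 genes it can be read against. *Cd34* had the highest change among the members with a promoter in the table, *Calcrl* the next highest, and *Stab1* and *Stab2* are the paired sinusoidal receptors with lower means. Of the 40 genes, 21 matched a promoter by symbol, with 25 promoters in all, each from 250 bases before to 50 bases after a start site, and *Lyve1* was not among them. Capitals mark CAGGAAG on either strand (CTTCCTG when read on the shown strand), a form of the core bound by ETS factors such as *Erg*. The windows are chr1:194938571-194938870 (plus strand), chr2:84425217-84425516, chr14:31168592-31168891 and chr10:87007893-87008192 (minus strand), in the order printed.
Cd34: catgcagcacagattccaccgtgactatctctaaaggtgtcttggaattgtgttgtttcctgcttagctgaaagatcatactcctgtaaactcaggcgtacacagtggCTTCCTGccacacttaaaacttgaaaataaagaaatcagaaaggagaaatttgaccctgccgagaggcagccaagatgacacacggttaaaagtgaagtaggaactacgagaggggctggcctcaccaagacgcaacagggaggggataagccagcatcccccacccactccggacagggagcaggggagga
Calcrl: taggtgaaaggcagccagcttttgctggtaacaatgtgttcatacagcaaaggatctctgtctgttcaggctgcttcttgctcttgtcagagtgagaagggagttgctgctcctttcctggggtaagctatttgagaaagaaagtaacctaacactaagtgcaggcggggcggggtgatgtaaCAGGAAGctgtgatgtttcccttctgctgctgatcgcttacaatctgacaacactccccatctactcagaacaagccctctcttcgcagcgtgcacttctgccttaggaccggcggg
Stab1: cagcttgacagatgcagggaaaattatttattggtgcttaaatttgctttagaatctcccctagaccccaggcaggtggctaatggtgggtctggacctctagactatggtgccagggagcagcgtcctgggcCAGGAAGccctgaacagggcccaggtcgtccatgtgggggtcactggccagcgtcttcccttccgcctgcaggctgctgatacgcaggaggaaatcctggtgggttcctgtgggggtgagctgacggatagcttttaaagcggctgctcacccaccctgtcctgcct
Stab2: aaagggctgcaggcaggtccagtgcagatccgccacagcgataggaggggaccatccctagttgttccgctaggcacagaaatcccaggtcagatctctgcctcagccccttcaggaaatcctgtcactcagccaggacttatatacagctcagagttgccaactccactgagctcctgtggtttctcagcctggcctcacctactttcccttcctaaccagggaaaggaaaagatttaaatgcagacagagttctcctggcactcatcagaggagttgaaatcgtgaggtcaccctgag

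The motif stood 142 bases before the start site in the *Cd34* promoter, 67 before it in that of *Calcrl* and 117 before it in that of *Stab1*, and the *Stab2* window did not hold these letters. Among the 25 member promoters 8 held it, from 7 genes, *Calcrl*, *Cd34*, *Egfl7*, *Emcn*, *Erg*, *Robo4* and *Stab1*, against 13.3% of all 32851 promoters in the table. Genes with and without it lay on both sides of 0 in log2 change. The letters CCGGAAG, also an ETS form, were in 0 of the 25, against 8.86% of all promoters. The GATA form AGATAA was in 2, those of *Erg* and *Tek* (11.2% of all), and CACCC, which KLF factors bind, was in 20 (57.5% of all). All were searched on both strands, CAGGAAG and CCGGAAG differ in their second letter so that no stretch matches both, and a match is a description of letters only.

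Several junction and surface genes that all endothelium shares had changes near 0. *Pecam1*, an adhesion molecule of endothelial contacts (chromosome 11, 106654217 to 106750628, minus strand), had ratios of 1.07, 0.983 and 0.976 in the libraries labelled WT and of 0.849, 1.10 and 1.16 in those labelled KO. The groups overlapped, with KO replicate 1 lowest and KO replicates 2 and 3 highest of the 6. *Cdh5*, the cadherin of endothelial junctions (chromosome 8, 104101625 to 104144511, plus strand), was at 1.06, 0.928 and 1.07 against 0.900, 1.04 and 1.12. Their log2 changes were 0.03 (95% confidence interval -0.29 to 0.34) and -0.01 (95% confidence interval -0.27 to 0.26). Changes of *Pecam1* and *Cdh5* turned sign with single libraries left out, over -0.05 to 0.15 and -0.07 to 0.07. The junction gene *Esam* (ratio of means 1.00), the guidance receptor *Robo4* (0.994), the glycoprotein *Cd93* (0.941), the water channel *Aqp1* (0.930) and the secreted factor *Egfl7* (0.911) had overlapping groups as well.

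Apart from *Flt4*, the receptors of the VEGF and angiopoietin pathways, which drive vessel growth and stability, were slightly lower in mean, with overlapping groups. *Kdr*, the main signalling receptor for VEGF-A, was at 1.09, 0.904 and 1.11 in the libraries labelled WT and at 0.841, 1.05 and 0.970 in those labelled KO (log2 change -0.11, 95% confidence interval -0.40 to 0.19). *Flt1*, which binds VEGF-A largely as a decoy, had a ratio of means of 0.911, and the angiopoietin receptor *Tek* and its partner *Tie1* had 0.884 and 0.897. *Ptprb*, the phosphatase that restrains *Tek*, had 0.954. In *Flt1*, *Kdr*, *Tek* and *Ptprb* the lowest of the 6 values was that of KO replicate 1.

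Of 12 ligands of these and related pathways 7 were tested, and 0 passed limma's test. Their median log2 change was 0.33, with 4 positive and 3 negative (lowest -0.21). For 2 all KO values exceeded all WT values, against 8.86% of all rows. The ligand list's mean centred log2 value did not overlap. It was -0.18 to 0.02 in the libraries labelled WT and 0.04 to 0.20 in those labelled KO, with no test. *Hgf*, a stellate cell growth factor, had a 1.43-fold higher mean, *Angpt2*, the antagonist of *Tek* in growing vessels, a 1.44-fold one, and *Vegfc*, the ligand of *Flt4*, a 1.26-fold one. The groups overlapped for *Angpt2*. Genes linked to sprouting tip cells, a list that also holds *Angpt2*, had 8 positive changes among 9 tested (median 0.31), with 0 past the threshold. Over all rows 6165 of 12578 changes were positive. The tip-cell list's mean centred log2 value overlapped, at -0.26 to 0.05 in the libraries labelled WT and -0.09 to 0.27 in those labelled KO. The basement membrane collagens *Col4a1* and *Col4a2*, which stellate cells make too, had 1.22- and 1.29-fold higher means with groups that did not overlap.

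*Notch1*, the receptor for the vessel-patterning ligand *Dll4* and one that many liver cells carry, showed a small and even difference. *Notch1* (chromosome 2, 26457903 to 26516663, minus strand) had ratios of 0.811, 0.893 and 0.889 in the libraries labelled WT and of 1.07, 1.01 and 1.05 in those labelled KO. All KO libraries lay above all WT libraries. The mean was 1.21-fold higher (log2 change 0.24, SE 0.08, 95% confidence interval 0.05 to 0.44, limma adjusted p = 0.324). *Dll4* overlapped, with 1.30 in KO replicate 2 against 0.848 to 1.01 in the other libraries. Other genes of NOTCH, BMP and KLF signalling had 10 positive changes among 17 tested (median 0.08) and 0 past the threshold. *Smad6*, an inhibitor of BMP signalling, was at 0.827, 0.723 and 0.707 against 1.18, 0.915 and 1.12, a 1.42-fold higher mean (limma adjusted p = 0.262). The BMP target *Id1* had a mean 1.71-fold higher that rested on KO replicate 1, at 1.95 against 0.973 and 0.753 in the other KO libraries.

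*Nos3*, *Sox18* and *Eng* were lower in the libraries labelled KO, none past the threshold. *Nos3*, the endothelial nitric oxide synthase (chromosome 5, 24364810 to 24384474, plus strand), had ratios of 1.13, 1.16 and 1.19 in the libraries labelled WT and of 0.649, 0.940 and 1.03 in those labelled KO. The WT values lay close together and the KO values were spread below them, with KO replicate 1 far lower than the others. Its log2 change was -0.40 (SE 0.16, 95% confidence interval -0.80 to 0.01, limma adjusted p = 0.423), and -0.22 without KO replicate 1.

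*Sox18*, a transcription factor of vessel and lymphatic development, was at 1.13, 1.04 and 1.06 against 0.949, 0.923 and 0.882. The ratio of means was 0.855 (log2 change -0.20, SE 0.08, limma adjusted p = 0.379), and the groups did not overlap. *Eng*, a co-receptor for BMP9, was at 1.11, 1.05 and 1.04 against 0.960, 0.947 and 0.989, a ratio of means of 0.907 (limma adjusted p = 0.538). Within groups *Eng*, *Sox18* and *Notch1* varied little, with SDs of 0.0368, 0.0535 and 0.0577 on the log2 scale, against a median of 0.153 over the 40 genes. The ETS factor *Erg* overlapped, with a ratio of means of 0.887.

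**Figure D3:**
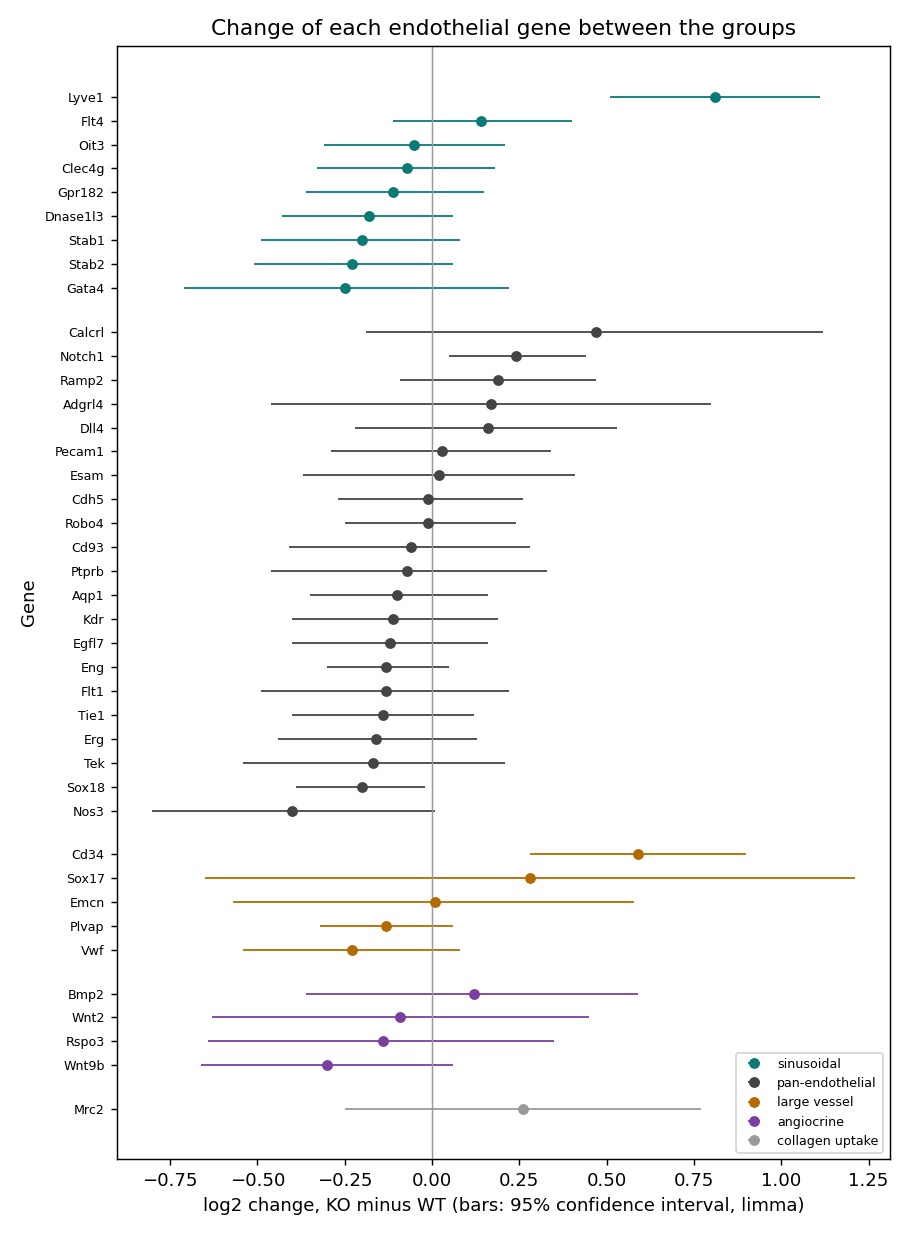
Log2 change of each gene, KO minus WT, with its 95% confidence interval from limma (bars), coloured by class. Intervals of *Lyve1* (0.51 to 1.11), *Cd34* (0.28 to 0.90), *Notch1* (0.05 to 0.44) and *Sox18* (-0.39 to -0.02) lie off 0 before adjustment over all rows, and those of the other 36 genes cross it.

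The adrenomedullin receptor, made of *Calcrl* and its partner *Ramp2*, keeps vessels and lymphatics tight. *Calcrl* had ratios of 0.534, 0.765 and 1.06 in the libraries labelled WT and of 0.926, 0.964 and 1.44 in those labelled KO. The groups overlapped, with replicate 3 highest in each (log2 change 0.47, SE 0.27, 95% confidence interval -0.19 to 1.12, limma adjusted p = 0.546). Without WT replicate 1 the change of *Calcrl* was 0.25, and without KO replicate 3 it was 0.28. *Ramp2* had a 1.15-fold higher mean, with KO libraries between 1.06 and 1.07 and WT replicate 2 at 0.771. *Adgrl4*, an adhesion receptor of sprouting endothelium, was at 0.699, 0.839 and 1.22 against 0.867, 0.870 and 1.40.

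Angiocrine ligands had 1 positive and 3 negative changes, and all overlapped. *Wnt9b*, a WNT ligand of central vein endothelium, was at 1.32, 1.12 and 1.01 in the libraries labelled WT and at 1.08, 0.791 and 0.879 in those labelled KO (log2 change -0.30, 95% confidence interval -0.66 to 0.06, limma adjusted p = 0.487). *Wnt2*, made by pericentral sinusoidal cells, was at 0.617 in KO replicate 1 and between 0.890 and 1.10 elsewhere. The WNT amplifier *Rspo3* had a ratio of means of 0.915, with KO libraries spread from 0.707 to 1.25. *Bmp2*, a ligand by which these cells induce hepcidin in hepatocytes, had 1.10. Of 15 hepatocyte genes under pericentral WNT control 0 passed limma's test, with 9 positive and 6 negative changes (median 0.03). All KO values exceeded all WT values for 3 of the 15, against 8.86% of all rows, and were under them for 3, against 10.1%. Among these, *Cyp1a2* had a ratio of means of 0.619 and the WNT inhibitor *Notum* 0.686, while *Oat* had a 1.48-fold higher mean.

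*Mrc2* had a 1.24-fold higher mean with overlapping groups (0.738, 0.964 and 0.997 against 1.08, 1.42 and 0.835). Stellate cell markers, for the mesenchymal cells beside the sinusoid, had a median of 0.03 with 7 of 12 positive. Their mean was -0.11 to 0.05 in the libraries labelled WT and -0.03 to 0.06 in those labelled KO.

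Set against each other, sinusoidal and other endothelial genes, with all members counted, differed between the groups by less than the spread of the libraries. The mean of the 9 sinusoidal genes minus that of the 26 pan-endothelial and large-vessel genes was 0.07, -0.06 and 0.01 in the libraries labelled WT on a centred log2 scale. It was 0.03, 0.01 and -0.06 in those labelled KO, with means of 0.01 ± 0.0629 and -0.01 ± 0.0502 (SD, n = 3 each). The medians of the log2 changes were -0.11 for sinusoidal, -0.07 for pan-endothelial, 0.01 for large-vessel and -0.12 for angiocrine genes. Without KO replicate 1 the pan-endothelial median was 0.01, the large-vessel median 0.25 and the angiocrine median 0.01, and the sinusoidal median stayed at -0.11. Leaving out *Lyve1* and *Cd34*, a choice made after their values were seen, the difference was 0.12, -0.01 and 0.03 against -0.01, -0.04 and -0.09. The means were then 0.05 ± 0.0631 and -0.05 ± 0.0398 (SD, n = 3 each, KO minus WT -0.09), with no test. *Lyve1* and *Cd34* had the highest changes of the 9 and of the 26 genes. Removing the highest from the smaller class moves its mean more, so a lower difference follows from the choice itself.

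**Figure D4:**
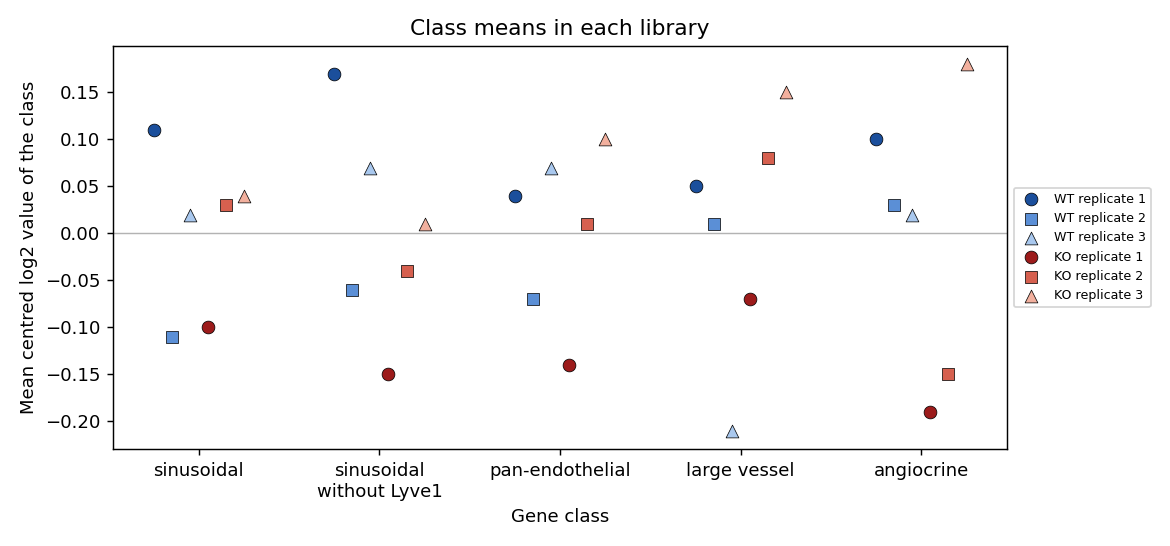
Mean centred log2 value of each gene class in each library (points, 1 per library). Every class overlaps between the groups, and KO replicate 1 is lowest for the pan-endothelial genes (-0.14) and the sinusoidal genes without *Lyve1* (-0.15).

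Endothelial genes outside the listed members were compared in the same fit. Of 25 other pan-endothelial genes 0 passed limma's test, with 12 positive and 13 negative changes (median -0.05). *Gja4*, an arterial connexin, was at 1.24, 0.967 and 1.19 against 0.856, 0.836 and 0.793 (ratio of means 0.732), and the venous receptor *Ephb4* had 0.786, while the transcription cofactor *Lmo2* had a 1.30-fold higher mean. Of 18 other sinusoidal genes 17 were tested, 0 passed and 11 were positive (median 0.04). *Cd36*, a fatty acid and scavenger receptor of sinusoidal cells that hepatocytes and macrophages also make, was at 0.484, 0.502 and 0.557 against 1.41, 1.40 and 1.96 (limma adjusted p = 0.0842). *Lifr* and *Ehd3* had ratios of means of 0.740 and 0.849. Among 7 adhesion and activation genes tested 5 were positive, with the leukocyte adhesion receptor *Vcam1* at a 1.37-fold and *Cd274*, which many cells make, at a 1.92-fold higher mean.

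The lowest and highest values of the 40 genes were spread unevenly over the libraries. KO replicate 1 held the lowest of the 6 values for 17 genes (42.5%), against 14.8% of all rows tested, and the highest for *Notch1* only (2.5%, against 15.0% of all rows). Those 17 included *Pecam1*, *Cdh5*, *Kdr*, *Flt1*, *Tek*, *Erg*, *Nos3*, *Emcn*, *Wnt2*, *Gata4*, *Stab1* and *Oit3*. Of the 40, 32 lay below their own 6-library mean in KO replicate 1 and 27 in WT replicate 2. In KO replicate 3 it was 12, and the same counts over all rows were not made. WT replicate 2 held the highest value for 3 genes (7.5%, against 22.3% of all rows). WT replicate 1 held the highest value for 12 genes (30.0%, against 15.9% of all rows), among them *Stab2*, *Gata4*, *Tie1*, *Eng* and *Sox18*. Without KO replicate 1, 20 of the 40 genes had a positive log2 change, against 14 with all libraries and 9 without KO replicate 3. With all libraries 6165 of the 12578 rows had a positive change, and rows were not counted this way with a library left out.

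**Figure D5:**
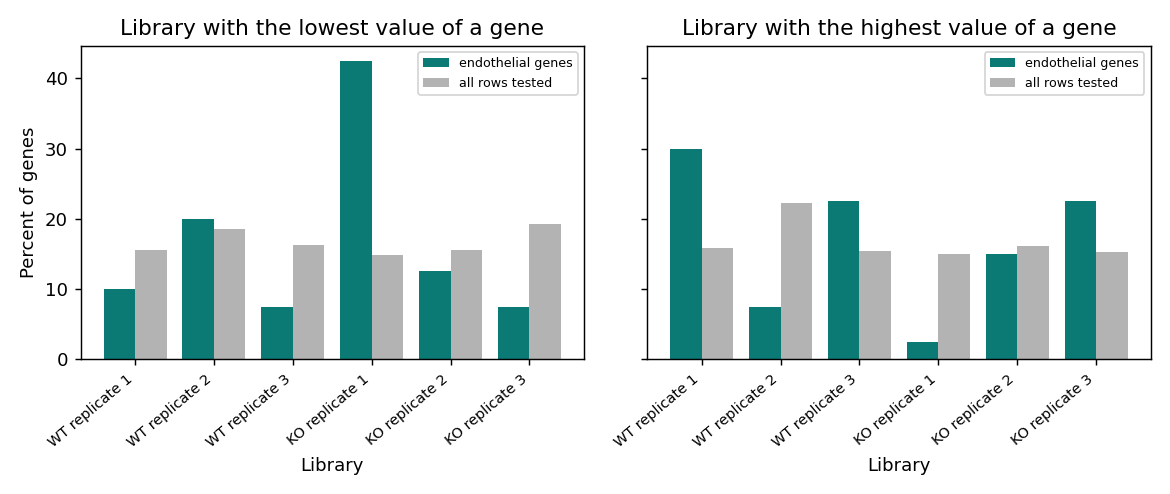
Percent of the 40 endothelial genes (green) and of all 12578 rows tested (grey) whose lowest (left) or highest (right) value lies in each library. KO replicate 1 holds the lowest value of 42.5% of the endothelial genes against 14.8% of all rows.

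Replicate 3 was the highest library of both groups at once for 13 of the 40 genes, against 13.8% of all rows, and the lowest of both for 0, against 16.7% of all rows. *Ptprb*, *Oit3*, *Stab1*, *Erg*, *Bmp2*, *Calcrl*, *Emcn*, *Adgrl4*, *Tek*, *Nos3*, *Aqp1*, *Cdh5* and *Clec4g* made up the 13. Equal numbers are not taken as pairs, since deviations over all rows correlated weakly, at -0.02, 0.00 and 0.09 for numbers 1 to 3. Unequal numbers gave -0.08 to 0.08, so number 3 had the highest value. Over the 40 genes alone the deviations correlated at 0.21, -0.06 and 0.24, and at -0.26 to 0.07 for unequal numbers, as a description. Mesothelial markers, of the cells that cover the liver, also had replicate 3 highest in both groups for 4 of 5 genes. Their mean was 0.74 in WT replicate 3 and 0.61 in KO replicate 3, against -0.96 and -0.53 in replicate 1 of each group. *Msln* was at 1.16 and 1.65 in those replicate 3 libraries, against 0.300 and 0.500. Their part in the endothelial values was not tested. Hepatocyte markers, at -0.08 to 0.04 over the 6 libraries, varied far less. Of 9 tested, 8 had a negative log2 change (median -0.07) and 0 passed limma's test. For 2, *Ttr* and *Ahsg*, all KO values were under all WT values, against 10.1% of all rows.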

How the data were processed

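Polyadenylated RNA from 6 mouse liver samples, 3 labelled WT and 3 labelled KO, was sequenced from libraries made with a NEBNext Ultra RNA kit, per the labels' protocols. The authors deposited a linear ratio per gene and library. Values reach 7 at most and 99 rows sum to 7 within 1e-09 over the 6 libraries, so this ratio reads as a gene's expression over its mean in 7 libraries, a reading from the values. Per the submitters' processing notes the tools include STAR 2.10 and R 4.0.5, with the build mm10. Counter, annotation, strand setting and library scaling: not given in the sources used here.

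Rows above 0 in 3 or more libraries were tested with limma 3.58.1 (R 4.3.3) on log2(value + 0.1), group only and without a mean trend, with Benjamini-Hochberg adjustment over all 12578 rows. The fit had 4 residual and 1.87 prior degrees of freedom and was tested on simulated data. Changes on this scale understate those of low values. Relative depth came from rows holding a 0, at the offset where most ratios between libraries lay within 0.008 (log2) of ratios of whole numbers up to 6 (45.7% to 69.9% of rows by library). Class means use log2 values centred on each gene's mean over the 6 libraries. Positions are from GENCODE M21.

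The members, lists and tests were chosen with earlier results of these data known. Values in every library are given for the 12 members with the smallest p and for *Stab2*, *Lyve1*, *Clec4g*, *Oit3*, *Pecam1*, *Cdh5*, *Kdr* and *Vwf*, and for others as examples, and up to 3 genes of each other list by smallest p are named. Deviations of same-numbered libraries over all rows correlated weakly, at -0.02, 0.00 and 0.09 for numbers 1 to 3. Unequal numbers gave -0.08 to 0.08, so number 3 had the highest value. The numbers were not used as pairs in the main fit. Cholangiocyte markers (median log2 change 0.65, 6 of 6 positive) and the erythroid gene *Alas2* (0.24) were also listed, with 0 past the threshold. For 2 of the 6 cholangiocyte markers all KO values exceeded all WT values, against 8.86% of all rows. Their list's mean centred log2 value was -0.53 to -0.15 in the libraries labelled WT and -0.09 to 0.54 in those labelled KO.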

Additional observations from a re-analysis of the deposited data

How the results depend on the processing

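Under every alternative tried 0 of the 40 genes passed the adjusted threshold. The alternatives were pseudocounts of 0.01 and 1, other filters, robust empirical Bayes, centred libraries, the replicate block and each library left out in turn. *Lyve1* had the smallest adjusted p of the 40 throughout (0.111 to 0.320 over the alternatives, log2 change 0.44 to 0.90, the lowest with a pseudocount of 1, which compresses changes), and *Cd34* had 0.199 to 0.392. With the replicate block *Lyve1* was at 0.320 and *Cd34* at 0.335, and the block changed no call among the members. Over all rows the count of 2 became 1 with the replicate block, 1 with a pseudocount of 1, 0 with only rows above 0 in all 6 libraries (1495 rows at an unadjusted p under 0.05), and 9 with libraries centred on the pan-endothelial median. With single libraries left out it was 1 to 4 (1 without WT replicate 2 or KO replicate 1, 4 without WT replicate 3 or KO replicate 2). Under the pan-endothelial centring, added after the data were seen, 3 genes lay wholly lower in the libraries labelled KO, against 3.59% of all rows. The changes of *Oit3* and *Cdh5* then reversed to 0.01 and 0.06. With libraries left out, genes wholly above numbered 4 to 8, against 12.6% to 15.8% of all rows. Genes wholly below numbered 5 to 15, against 14.2% to 17.6% of all rows. The large-vessel median was then -0.11 to 0.25. Changes of *Oit3*, *Cdh5* and *Pecam1* were -0.12 to 0.04, -0.07 to 0.07 and -0.05 to 0.15. The cause was not tested.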
